A study of Mus musculus with 6 samples.

Results

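Adipokines are hormones and growth factors that fat cells release, and batokines are those released by brown fat. The transcripts of 10 such genes were followed here among 22466 genes with a RefSeq transcript in the abundance table. They were Adipoq (adiponectin), Retn (resistin), Lep (leptin), Rbp4 (retinol-binding protein 4), Nrg4 (neuregulin 4), Vegfa (vascular endothelial growth factor A), Angptl4 (angiopoietin-like 4), Nampt (nicotinamide phosphoribosyltransferase), Apln (apelin) and Metrnl (meteorin-like). Each gene stands for its most abundant RefSeq transcript. Of the 10 genes, 9 reached the mean of at least 0.5 RPKM required for a test, and Lep did not.

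The cells were primary brown adipocytes, grown from precursors of the interscapular brown fat of male mice of strain 129SvEvS1, 5 to 6 wk old. WT cells (3 cultures, replicates 10, 11 and 12) were compared with UCP1(-/-) cells, called Ucp1-KO (3 cultures, replicates 13, 14 and 15), to learn what loss of the uncoupling protein changes in the transcriptome. Both genotypes were induced for 2 d with isobutylmethylxanthine, indomethacin and dexamethasone beside insulin, T3 and rosiglitazone, and kept for 7 d in insulin, T3 and rosiglitazone, an activator of the nuclear receptor PPARγ. How many mice stand behind a culture is not given in the sources used here, so the p-values measure the spread between cultures.

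White adipocytes release mainly adiponectin, leptin and resistin, which act on liver, muscle and brain to set insulin sensitivity and food intake. Brown adipocytes make adiponectin as well, but little leptin, and add factors that act close by or on nerves, vessels and liver. VEGF-A and apelin act on endothelial cells, ANGPTL4 inhibits lipoprotein lipase, and neuregulin 4 signals through the receptor tyrosine kinase ErbB4. Nampt stands apart, since it is an enzyme of NAD salvage that also occurs outside cells.

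The 250 bases before the transcription start site of 3 genes are shown from RefSeq (GRCm38.p6, 5′ to 3′ on the strand of the gene): Adipoq as the most abundant member, Nrg4 as the member whose genotypes did not overlap and Lep as the member close to the detection floor. Their windows are chr16:23146286-23146535 (forward strand), chr9:55283626-55283875 (reverse strand) and chr6:29059971-29060220 (forward strand). The Nrg4 window precedes a start site that lies 29 bases inside the outer edge of the gene in RefSeq, so that its last 29 bases, with 1 of the AGGTCA matches, are within the annotated gene. Capitals mark every match, on both strands, to 6 short motifs. TATAAA was searched as a form of the motif that positions the polymerase, CCAAT as the motif of the NF-Y factor, and AGGTCA as the core that most nuclear receptors recognise. ACGTG as well as GCGTG were searched for the hypoxia response element, and the palindrome TTGCGCAA for the C/EBP family.
Adipoq: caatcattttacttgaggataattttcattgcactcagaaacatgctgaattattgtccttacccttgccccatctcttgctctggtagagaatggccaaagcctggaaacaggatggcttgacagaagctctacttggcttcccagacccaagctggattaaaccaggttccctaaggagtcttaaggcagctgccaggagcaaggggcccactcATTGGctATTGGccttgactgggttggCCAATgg
Nrg4: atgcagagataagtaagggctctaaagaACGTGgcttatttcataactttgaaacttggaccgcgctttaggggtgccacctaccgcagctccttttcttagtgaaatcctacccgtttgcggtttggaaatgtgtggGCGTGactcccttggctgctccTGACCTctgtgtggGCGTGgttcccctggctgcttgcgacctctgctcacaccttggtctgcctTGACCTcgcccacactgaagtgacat
Lep: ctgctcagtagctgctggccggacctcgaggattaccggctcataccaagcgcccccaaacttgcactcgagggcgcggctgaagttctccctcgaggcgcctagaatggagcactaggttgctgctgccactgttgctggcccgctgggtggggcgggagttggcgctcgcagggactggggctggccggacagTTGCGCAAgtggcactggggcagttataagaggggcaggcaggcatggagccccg

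A window was listed for 9 of the 10 members. The Adipoq window held 3 matches to CCAAT, a motif present in 33.9% of all 32851 windows of this length. The Nrg4 window held 2 matches to the nuclear receptor core AGGTCA, found in 14.02% of all windows, as well as 1 to ACGTG, found in 16.6%, and 2 to GCGTG, found in 28.2%. The Lep window held the C/EBP palindrome, which 0.164% of all windows contain. TATAAA, present in 12.4% of all windows, was in 0 of the 9 windows of the members. These matches describe letters and not binding.

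The targeted gene, Ucp1, had 1775, 981 and 1157 RPKM in WT cultures and 307, 409 and 398 RPKM in Ucp1-KO cultures. Every culture labelled Ucp1-KO thus lay below every WT culture, but none was near 0. The disrupted locus still gives an untranslated transcript without some of the exons, so that this row, counted over the whole transcript, checks the labels only in part. Its log2 difference was -1.78 (95% interval from -2.34 to -1.21). At a limma adjusted p of 0.868 not even this transcript passed over all 16865 transcripts tested. The authors' own pairwise comparison, with another algorithm, listed Ucp1 among the genes that differed. A lack of adjusted calls in the limma fit therefore does not show that a transcript is unchanged.

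The members spanned more than 3 orders of magnitude in abundance, which RPKM gives per transcript length and per mapped read. Adipoq and Rbp4 led, with ranks 14 and 18 among all genes in WT cells, and Lep closed the list with rank 12874. Together the 10 transcripts took between 0.391% and 0.524% of the reads of a culture. The reads behind each value were computed from RPKM, with totals between 14989601 and 17727666 reads per culture.

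**Figure D1:**
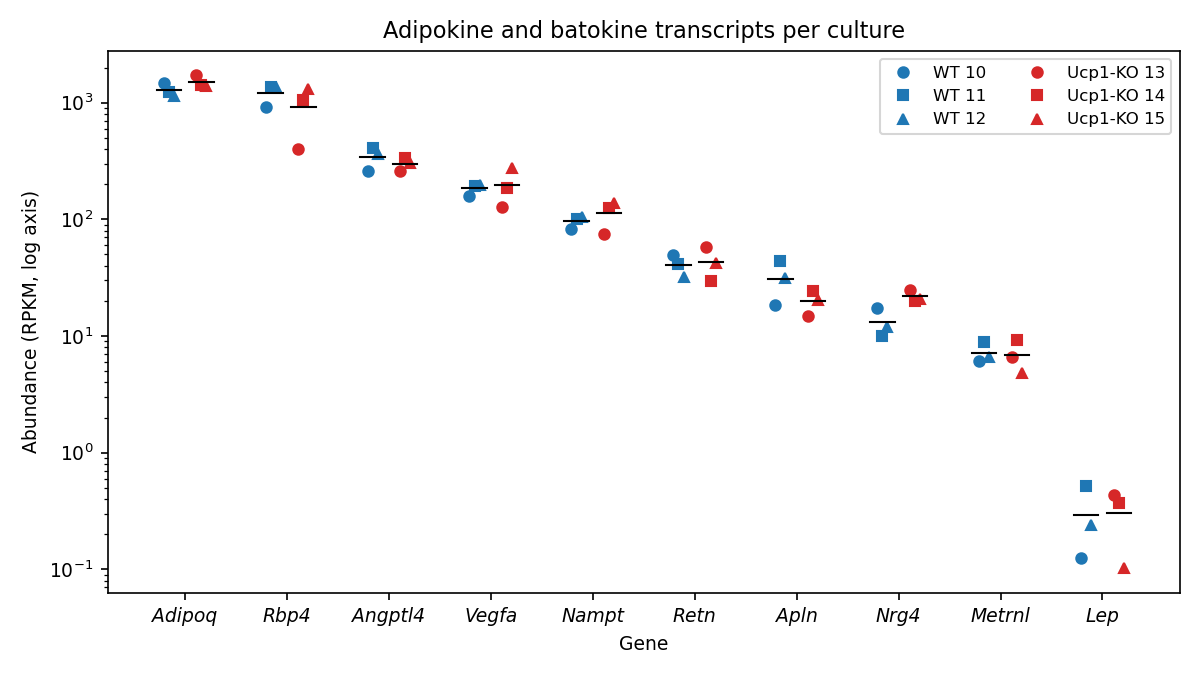
Abundance (RPKM, log axis) of the 10 genes in each of the 6 cultures, ordered by the WT mean. Blue symbols are WT cultures, red symbols Ucp1-KO cultures and black lines the mean of 3 cultures. Red and blue symbols are mixed for all genes but Nrg4, where the lowest Ucp1-KO culture (19.9 RPKM) lies above the highest WT culture (17.6 RPKM).

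Adipoq, the most abundant transcript of this list, encodes a hormone that improves insulin sensitivity. Its abundance was 1480, 1241 and 1135 RPKM in WT replicates 10, 11 and 12 and 1714, 1410 and 1398 RPKM in Ucp1-KO replicates 13, 14 and 15. WT replicate 10 thus lay among the Ucp1-KO cultures, and the groups overlapped. The means were 1285 ± 177 RPKM in WT cultures and 1508 ± 179 RPKM in Ucp1-KO cells (SD over n = 3 cultures each), a log2 difference of 0.23 (standard error 0.15, 95% interval from -0.13 to 0.60, limma adjusted p = 0.876). It was 0.14 when Ucp1-KO replicate 13 was omitted and 0.15 when WT replicate 12 was. A WT mean 4365 times that of Lep separated the most from the least abundant member.

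Retn, the gene of the cysteine-rich hormone resistin, was listed with 2 transcripts of 582 and 1139 bases. The shorter one had 49.1, 41.6 and 32.2 RPKM in WT cultures and 57.5, 29.6 and 42.2 RPKM in Ucp1-KO cultures. The highest and the lowest value were both of Ucp1-KO origin. The log2 difference was 0.04 (95% interval from -0.57 to 0.65, limma adjusted p = 0.985). The level depended on the transcript chosen, being 2.52-fold lower in WT cells on the longer one (16.3 ± 2.999 RPKM, SD, n = 3), while the log2 difference of that transcript was 0.08.

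Lep, the gene of the satiety hormone leptin, was counted with 7, 28 and 14 reads in WT and 23, 21 and 5 reads in Ucp1-KO cultures, 49 reads in each genotype. In RPKM these were 0.126, 0.515 and 0.242 in WT and 0.437, 0.374 and 0.102 in Ucp1-KO cells. All cultures were above the floor of 3 reads, which was between 0.0520 and 0.0615 RPKM for this transcript and covers counting error only. The genotypes overlapped, with a 4.09-fold range among WT and a 4.27-fold range among Ucp1-KO cultures, and Lep was too low to be part of the comparison over all transcripts.

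Rbp4 carries retinol in plasma. Its abundance was 918, 1359 and 1361 RPKM in WT cultures and 402, 1060 and 1316 RPKM in Ucp1-KO cultures. Ucp1-KO replicate 13 stood alone, at 33.4% of the mean of the other 5 cultures, and the remaining Ucp1-KO cultures lay within the WT range. The log2 difference of -0.53 had the widest interval of the members tested (from -1.57 to 0.51, limma adjusted p = 0.889). Without Ucp1-KO replicate 13 it was -0.01, and the mean of the remaining Ucp1-KO cultures was 1188 against 1213 RPKM in WT cells, whereas without Ucp1-KO replicate 15 the log2 difference was -0.87. The second RefSeq transcript of Rbp4 rested on nearly the same reads and had the same log2 difference of -0.53.

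Nrg4 encodes an epidermal growth factor-like ligand that brown fat releases and that acts on the liver. Its abundance was 17.6, 9.94 and 12.02 RPKM in WT cultures and 24.9, 19.9 and 20.8 RPKM in Ucp1-KO cultures. Every Ucp1-KO culture lay above every WT culture, so the genotypes did not overlap, as for 11.2% of all transcripts in either direction (p = 0.1 in an exact permutation test, two-sided, which cannot go lower with 3 cultures against 3). The values rested on 320 to 578 reads in WT and 601 to 775 reads in Ucp1-KO cultures.

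The Ucp1-KO mean of Nrg4 was 21.9 ± 2.66 RPKM and the WT mean 13.2 ± 3.94 RPKM (SD over n = 3 cultures each), or 166% of WT. The log2 difference was 0.72 (standard error 0.20, 95% interval from 0.24 to 1.20) with a limma unadjusted p of 0.00935, number 134 of 16865 transcripts ordered by p. Adjusted over all transcripts by the Benjamini-Hochberg method, it did not pass (limma adjusted p = 0.868). When single cultures were left out, the log2 difference stayed between 0.55, without WT replicate 11, and 0.93, without WT replicate 10. The limma adjusted p-values were at least 0.376, and the sign could not change, because the genotypes did not overlap. An absolute log2 difference as large as that of Nrg4 was seen in 1.22% of all transcripts tested. These include rare transcripts, whose differences are understated on the log2(RPKM + 1) scale, so it is not a share among transcripts of like abundance.

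Other rows of the table gave the same direction. Of 12 further Nrg4 rows from other annotations, which share reads with the RefSeq row, 11 had a mean of at least 0.5 RPKM, the Ucp1-KO mean was higher in 11 of them, and in 8 all Ucp1-KO values were above all WT values. The exons of the Nrg4 transcript overlap those of Fbxo22 on the opposite strand over 166 of 1927 bases (8.61%, GENCODE M21), and the library kit does not keep strand. Fbxo22 had 25.4, 23.2 and 23.9 RPKM in WT cultures and 24.7, 22.7 and 26.4 RPKM in Ucp1-KO cultures, so that these groups overlapped.

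Vegfa drives the growth of the dense capillary bed of brown fat. It had 159, 195 and 198 RPKM in WT cultures and 128, 184 and 276 RPKM in Ucp1-KO cultures. Ucp1-KO cultures held both the lowest and the highest value, a 2.16-fold range against a 1.25-fold range among WT cultures. The log2 difference was 0.03 (95% interval from -0.61 to 0.66, limma adjusted p = 0.993). The other 5 RefSeq transcripts of Vegfa, which rest largely on the same reads, had WT means between 177 and 184 RPKM and log2 differences between 0.03 and 0.04.

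Angptl4 is induced by fatty acids through PPARs and by hypoxia, and its product limits the uptake of lipoprotein triglyceride. It had 262, 411 and 362 RPKM in WT cultures and 259, 334 and 304 RPKM in Ucp1-KO cultures. The WT range enclosed 2 of the 3 Ucp1-KO cultures, and the lowest values of both genotypes, in replicates 10 and 13, were nearly equal. The log2 difference was -0.19 (standard error 0.19, 95% interval from -0.63 to 0.26, limma adjusted p = 0.901). Omitting WT replicate 11 brought it to -0.05, omitting Ucp1-KO replicate 13 to -0.09 and omitting WT replicate 10 to -0.37 (limma unadjusted p = 0.0449, adjusted p = 0.472).

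Nampt had 83.1, 101 and 104 RPKM in WT cultures and 74.9, 125 and 137 RPKM in Ucp1-KO cultures. The Ucp1-KO values fell on either side of the WT range. The log2 difference of 0.18 (95% interval from -0.37 to 0.73, limma adjusted p = 0.918) rested on which cultures were included, with 0.45 (limma unadjusted p = 0.0131 and adjusted p = 0.472) when Ucp1-KO replicate 13 was left out, 0.08 without WT replicate 10 or Ucp1-KO replicate 14 and 0.02 without Ucp1-KO replicate 15.

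Apln encodes the ligand of the apelin receptor, which both adipocytes and endothelial cells can make. It had 18.3, 43.8 and 31.3 RPKM in WT cultures and 14.9, 24.4 and 20.3 RPKM in Ucp1-KO cultures. The genotypes overlapped because WT replicate 10 lay below 2 of the Ucp1-KO cultures. The log2 difference was -0.57 (standard error 0.32, 95% interval from -1.32 to 0.19, limma adjusted p = 0.873). It was -0.29 without WT replicate 11 and -0.89 without WT replicate 10 (limma adjusted p = 0.407, unadjusted p = 0.0101).

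The 6 endothelial markers examined (Pecam1, Cdh5, Tek, Emcn, Tie1 and Cldn5) were highest in the same culture as Apln. Their summed abundance was 2.84, 38.5 and 17.5 RPKM in WT cultures and 7.43, 17.6 and 6.02 RPKM in Ucp1-KO cultures. None of the 6 was at 0 in all cultures, 5 were abundant enough to be tested and all 5 had a log2 difference below 0, with a median of -0.41 and 0 past the adjusted threshold. Stromal and preadipocyte markers (12 genes) also peaked in WT replicate 11, with a sum of 2405 RPKM against 993 to 1534 RPKM in the other cultures. The part of these cells in the Apln and Angptl4 values was not tested, and in cultures measured whole, fewer cells of a type and less RNA per cell cannot be told apart.

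**Figure D2:**
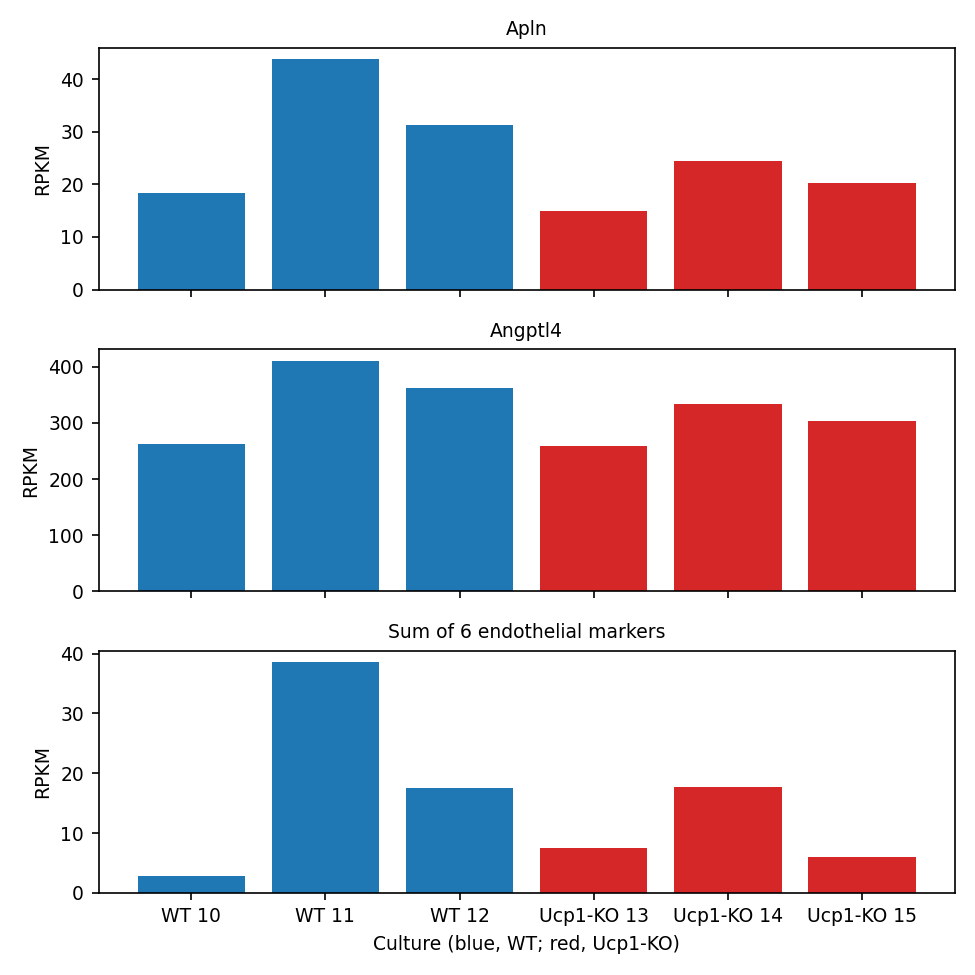
Abundance (RPKM) of Apln (upper panel) and Angptl4 (middle panel) and the sum of 6 endothelial markers (lower panel) in each culture, blue for WT and red for Ucp1-KO. All 3 bars are highest in WT replicate 11, with 43.8 RPKM for Apln, 411 RPKM for Angptl4 and 38.5 RPKM for the markers.

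Metrnl, the gene of a secreted factor of fat and muscle that acts on immune cells, was the least abundant member tested. It had 6.08, 8.86 and 6.56 RPKM in WT cultures and 6.67, 9.26 and 4.78 RPKM in Ucp1-KO cultures. The lowest and the highest value were both of Ucp1-KO origin. The log2 difference was -0.07 (95% interval from -0.62 to 0.47, limma adjusted p = 0.970).

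Counted over the 9 members tested, 5 had a higher and 4 a lower mean of log2(RPKM + 1) in Ucp1-KO cells, with a median log2 difference of 0.03 against -0.0016 over all 16865 transcripts. None had a limma adjusted p under 0.05 (0%, as over all transcripts), and 1, Nrg4, had an unadjusted p under 0.05, where the share over all transcripts was 5.54%. The genotypes did not overlap for 1 of 9, against 11.2% of all transcripts, so that both counts were near the background. The median absolute log2 difference was 0.19 for the members and 0.11 for all transcripts. These medians were not matched for abundance, and differences of rare transcripts are understated on this scale.

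**Figure D3:**
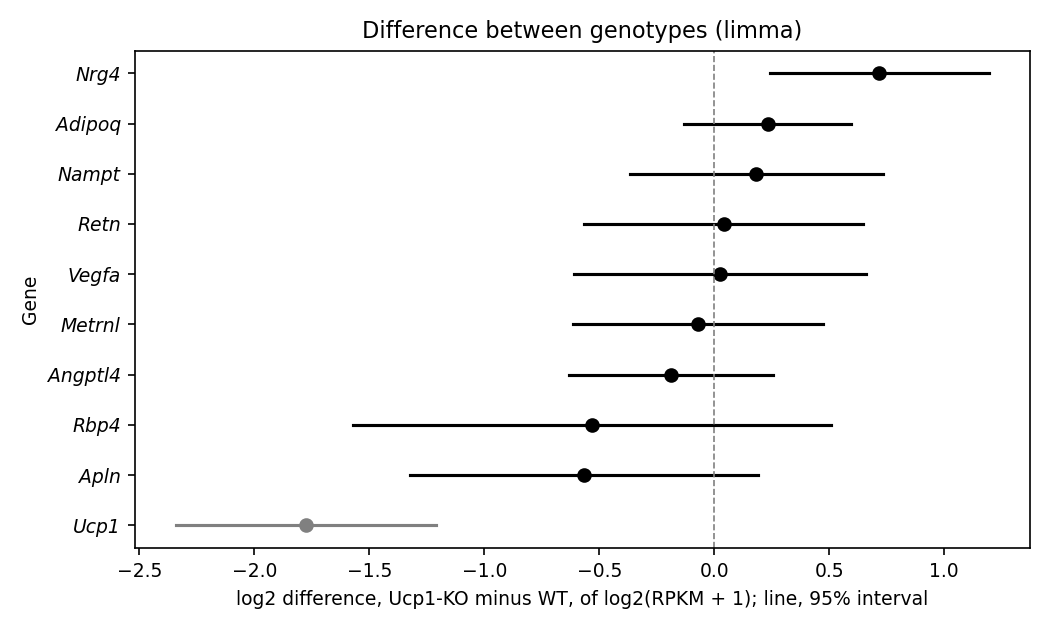
Log2 difference between Ucp1-KO and WT cells on the log2(RPKM + 1) scale for the 9 members tested (black) and for Ucp1 (grey). Points are limma estimates and lines their 95% intervals, which include 0 for every member except Nrg4 (0.24 to 1.20).

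The order of the WT means was Adipoq, Rbp4, Angptl4, Vegfa, Nampt, Retn, Apln, Nrg4, Metrnl and Lep. Adipoq and Rbp4 did not differ beyond their spread, with Adipoq higher in 4 of 6 cultures. Rbp4 exceeded Angptl4, Angptl4 exceeded Vegfa, Vegfa exceeded Nampt and Nampt exceeded Retn in 6 of 6 cultures each. Retn was above Apln in 5 of 6 cultures and their WT ranges overlapped. Apln was above Nrg4 in 4 of 6 cultures, with 2.36-fold the Nrg4 mean in WT cells, but Nrg4 was above Apln in Ucp1-KO replicates 13 and 15.

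Single cultures moved several members at once. Ucp1-KO replicate 13 had the lowest value of 5 of the 9 members tested (Rbp4, Vegfa, Angptl4, Nampt and Apln) and the highest of 3 (Adipoq, Retn and Nrg4), with a median absolute deviation from the 6-culture mean of 0.48 on the log2 scale against 0.10 to 0.32 in the other cultures. Ucp1-KO replicate 15 had the highest values of Vegfa and Nampt. As a description over 6 cultures, which share their library and scaling across genes, Pearson's r of log2(RPKM + 1) was 0.98 between Angptl4 and Apln, 0.89 between Vegfa and Nampt and 0.86 between Adipoq and Nrg4. It was -0.93 between Nrg4 and Apln and -0.87 between Adipoq and Rbp4.

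**Figure D4:**
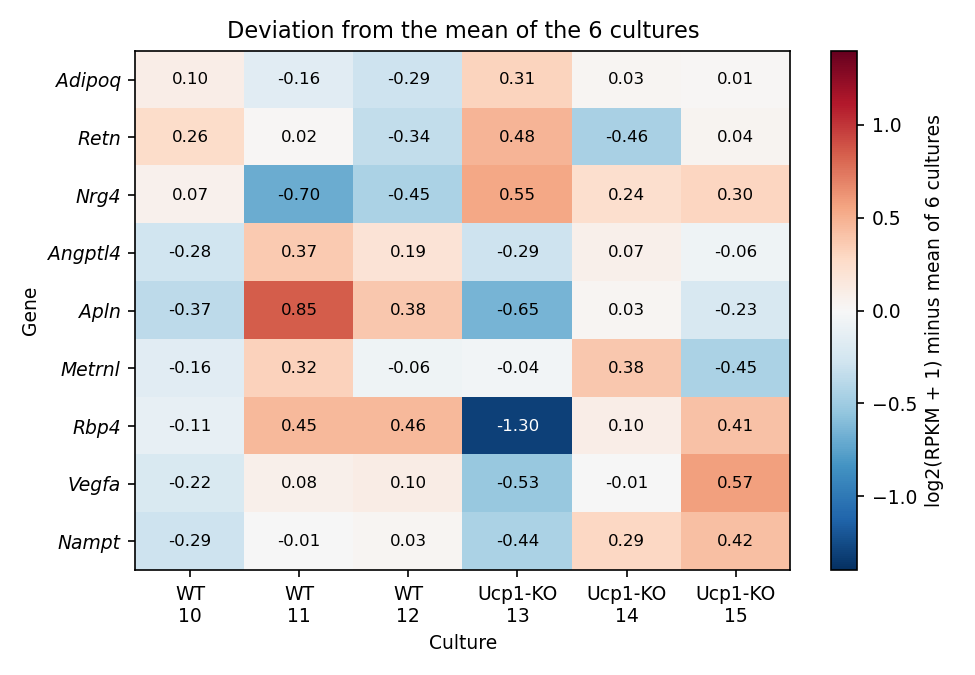
Deviation of each of the 9 members tested from its own mean over the 6 cultures, on the log2(RPKM + 1) scale (red, above; blue, below). The column of Ucp1-KO replicate 13 runs from -1.30 for Rbp4, the lowest value of all, to 0.55 for Nrg4, and the highest value of all is 0.85 for Apln in WT replicate 11.

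Among 5031 other genes with a mean of at least 10 RPKM, those most like Nrg4 over the 6 cultures were Hsdl2 and Gstm1 (Pearson's r = 0.997 each). Those most like Adipoq were Acaa1b (r = 0.996), a peroxisomal thiolase, and Sephs2 (r = 0.990). C1s (r = 0.998) and Rheb (r = 0.995) were closest to Angptl4, and Arcn1 (r = 0.996) and Myl12b (r = 0.993) to Apln. For Rbp4 these were Serinc4 and Serf2, for Vegfa Foxo4 and Fundc2, for Nampt Ndufaf3 and Zfand6, for Metrnl Nras and Cd47, for Retn Diablo and Ddx5 and for Lep Ubb and Rilpl2, with r between 0.945 and 0.998. With 6 points, an r of at least 0.9 was reached by between 12 genes, for Retn, and 333 genes, for Angptl4, with 35 for Lep and 117 for Nrg4.

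Receptors and partners of the members, transcription factors of adipokine genes and other secreted factors were taken from 10 lists, called partner lists. They had 105 genes in the table, of which 38 were other secreted factors and 12 transcription factors. Of the 105 genes, 82 were abundant enough to be tested. None passed the adjusted threshold in either direction, 27 had a higher and 55 a lower estimate in Ucp1-KO cells, and their median log2 difference was -0.12. The unadjusted p was under 0.05 for 2 genes that were higher and 5 that were lower in Ucp1-KO cells, where 2.3% and 3.24% of all transcripts were found. Among them were Fgf1 and Gm6484 (Angptl8) on the higher side and Egfr, Erbb2, Cfd and Cebpd on the lower side, of which Fgf1, Gm6484, Cfd and Cebpd were named after their values were seen. The list counts are descriptions, and the estimates of stromal markers were below 0 for 11 of 11 tested, with a median log2 difference of -0.44, 0 past the adjusted threshold and summed levels that overlapped between the genotypes. The part of stromal cells in the list counts was not tested.

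Adipor2, the gene of an adiponectin receptor, had 287 ± 12.3 RPKM in WT cultures and 306 ± 9.10 RPKM in Ucp1-KO cells (SD over n = 3 cultures each). The log2 difference was 0.10 (limma adjusted p = 0.893), with all Ucp1-KO cultures above all WT cultures, as for 6.04% of all transcripts. Ero1l, an oxidase of the endoplasmic reticulum needed for adiponectin assembly, had 117 ± 58.3 and 81.2 ± 59.6 RPKM. For the leptin and resistin lists, Cap1, an actin-binding protein described as a resistin receptor, had 66.7 ± 2.91 and 63.5 ± 11.4 RPKM and Tlr4 8.21 ± 1.61 and 7.68 ± 0.837 RPKM (SD over n = 3 cultures each). Of the 6 genes in that list, 4, the leptin receptor gene Lepr among them, were too low to be tested.

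Erbb4, the receptor of neuregulin 4, was listed at 0 in all 6 cultures, and Nrg2 and Nrg3 were too low to be tested. Of the ErbB family, Egfr had 12.5 ± 1.44 RPKM in WT cultures and 9.85 ± 0.573 RPKM in Ucp1-KO cells and Erbb2 1.56 ± 0.173 and 1.07 ± 0.122 RPKM (SD over n = 3 cultures each). Their log2 differences were -0.31 and -0.30, all 4 genes of the list that were tested had a negative estimate, and 0 passed the adjusted threshold. The Ucp1-KO cultures of Egfr and of Erbb2 were all below the WT cultures, as for 5.15% of all transcripts.

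Among VEGF ligands and receptors, Vegfb had 60.6 ± 6.23 and 56.4 ± 8.42 RPKM and the coreceptor Nrp1 33.4 ± 3.04 and 28.9 ± 5.16 RPKM in WT and in Ucp1-KO cells (SD over n = 3 cultures each). The estimate was negative for 7 of 8 genes tested. Lpl, the lipase that ANGPTL4 inhibits, had 1107 ± 66.8 and 1238 ± 73.9 RPKM, and Angptl2 32.6 ± 3.29 and 28.3 ± 2.18 RPKM (SD over n = 3 cultures each). In the NAD list, Nadk, the NAD kinase gene, had 78.0 ± 3.02 and 83.5 ± 3.17 RPKM and Sirt3, the gene of a mitochondrial NAD-dependent deacylase, 34.9 ± 1.37 and 41.9 ± 12.4 RPKM (SD over n = 3 cultures each), with 5 of 9 genes higher. Metrn, the paralog of Metrnl, had 4.03 ± 1.07 and 3.59 ± 0.800 RPKM (SD over n = 3 cultures each), and the apelin receptor gene Aplnr was too low to be tested.

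Of the 32 other secreted adipocyte factors tested, 10 had a higher and 22 a lower estimate in Ucp1-KO cells, with a median log2 difference of -0.31. Sparc, a collagen-binding matrix protein also made by stromal cells, was the most abundant with 1219 ± 330 and 973 ± 151 RPKM, followed by Rarres2, the chemerin gene, with 624 ± 105 and 491 ± 149 RPKM (SD over n = 3 cultures each). Chosen after its values were seen, Cfd, the gene of the serine protease adipsin, had 155 ± 46.4 and 93.1 ± 22.3 RPKM (SD over n = 3 cultures each). The log2 difference was -0.72 (limma unadjusted p = 0.0268, adjusted p = 0.868). All Ucp1-KO cultures of Cfd were below all WT cultures, as for 5.15% of all transcripts. Fgf1, chosen likewise, had 2.33 ± 0.368 and 3.19 ± 0.276 RPKM (SD over n = 3 cultures each).

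Transcription factors that drive adipokine genes were all abundant enough to be tested. Pparg, the master regulator of adipocyte differentiation, had 122 ± 4.62 and 135 ± 8.46 RPKM and Cebpa 141 ± 8.94 and 161 ± 13.02 RPKM in WT and in Ucp1-KO cells (SD over n = 3 cultures each). Their log2 differences were 0.14 and 0.19, and 7 of 12 factors had a positive estimate with a median of 0.03. All Ucp1-KO cultures were above all WT cultures for Cebpa, as for 6.04% of all transcripts.

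The adipocyte label held in every culture, with a sum of 29789 to 31735 RPKM over 8 adipocyte markers in WT and 30965 to 32814 RPKM in Ucp1-KO cells. Most of this sum was Fabp4, the fatty acid-binding protein of adipocytes, with 26399 to 29312 RPKM, and each of the other 7 markers had at least 45.6 RPKM in every culture. The 8 brown adipocyte markers summed to 1814 to 2031 and 1680 to 2700 RPKM. Macrophage markers (6 genes) were highest in Ucp1-KO replicate 14 with 817 RPKM against 42.5 to 179 RPKM elsewhere, and mural markers (5 genes) ranged from 117 to 204 RPKM in WT and from 38.9 to 167 RPKM in Ucp1-KO cells. Skeletal muscle markers (6 genes) summed to at most 9.83 RPKM.

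**Figure D5:**
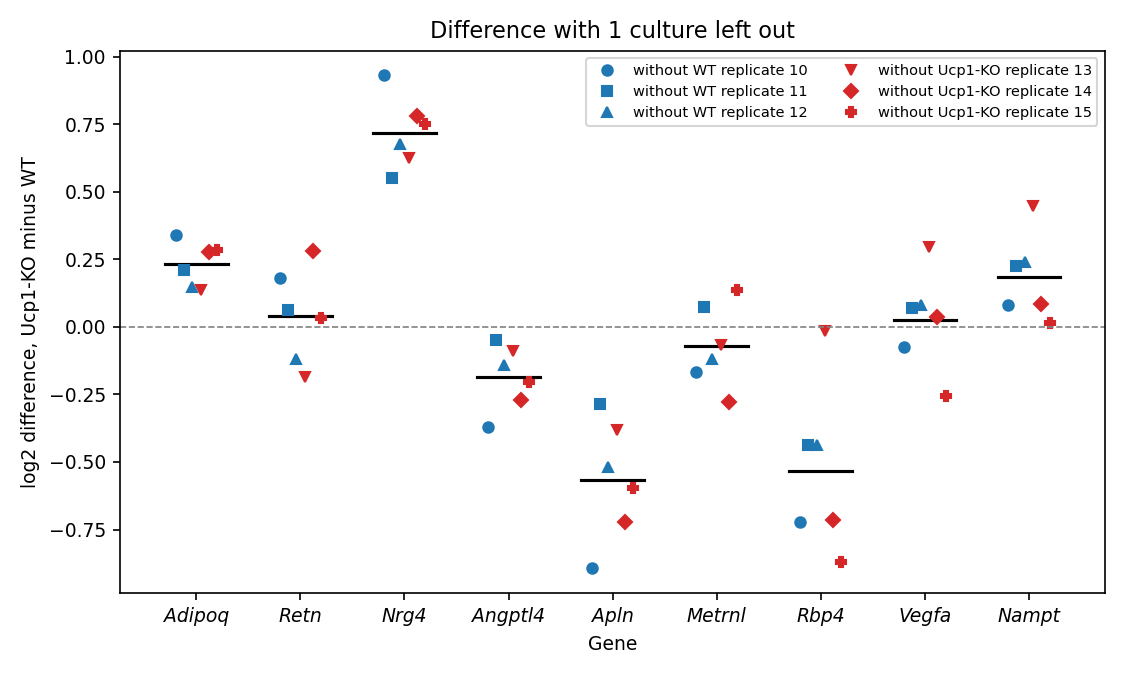
Log2 difference between Ucp1-KO and WT cells with each culture left out in turn (blue, a WT culture left out; red, a Ucp1-KO culture left out) and with all 6 cultures (black line). Nrg4 stays above 0 in all 6 cases (0.55 to 0.93), which follows from genotypes that do not overlap. Adipoq, Nampt, Angptl4, Apln and Rbp4 keep their sign, whereas Retn, Vegfa and Metrnl fall on both sides of 0.

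Across the 6 cases the log2 difference kept its sign for Adipoq, Rbp4, Angptl4, Nampt and Apln and changed it for Retn, Vegfa and Metrnl. Nrg4 kept its sign as well, but could not change it, since its genotypes did not overlap. For Rbp4 the estimate came close to 0 without Ucp1-KO replicate 13.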

How the data were processed

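Primary brown adipocytes of 3 WT and 3 Ucp1-KO cultures were analysed by RNA sequencing, and genotype and replicate number came from the sample labels. The authors made libraries with the TruSeq RNA v2 kit, read them as single ends over 50 bases, aligned the reads to mouse build 38 and counted those with a unique assignment on known transcripts. The authors deposited RPKM values, which are scaled by transcript length and mapped reads. CASAVA and bcl2fastq are named in the submitters' processing notes. All value columns matched a culture by name.

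From these values, 28890 RefSeq rows (accessions NM_ and NR_) of 168326 rows were used, and the row with the highest mean stood for a gene. Rows with a mean of at least 0.5 RPKM (16865) were compared with limma 3.58.1 (R 4.3.3, empirical Bayes with intensity trend) on log2(RPKM + 1), with genotype as the only term. Adjustment was over all rows, by the Benjamini-Hochberg method at 0.05. Fold changes of rare transcripts are understated on this scale. Single genes were compared by exact two-sided permutation tests. Read numbers were computed from RPKM with library totals from Ensembl transcripts of known length, and 99.87% of the tested rows gave whole reads (within 0.03) in all cultures. The floor was 3 reads. The comparison was tested on simulated data. Python 3.11.15, pandas 2.3.3 and scipy 1.17.1 were used.

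Named genes were the 10 members, the 2 most abundant tested genes of each partner list, the 2 genes most like each member and listed cell markers, others being named as chosen after their values were seen. Members and lists were chosen with earlier results of these data known. Alternatives were 0.1 RPKM added, no minimum abundance, leaving out each culture, median-of-ratios scaling, limma-voom on reads and summed rows per gene, and Nrg4 rows of other annotations were added after seeing the data. Coordinates are from RefSeq on GRCm38.p6. No sample was left out, and results for some single genes of the lists are not reported. Of the listed symbols, 105 of 113 had a RefSeq row.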

Additional observations from a re-analysis of the deposited data

How the results depend on the processing

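The number of RefSeq transcripts past the adjusted threshold was 0 with all 6 cultures, 0 with limma-voom on reads and 0 in each comparison with 1 culture left out. At a limma unadjusted p under 0.05 there were 935 transcripts with all cultures and 898 with limma-voom on reads, against 1760 without WT replicate 10, 1542 without Ucp1-KO replicate 13, 599 without Ucp1-KO replicate 14, 440 without WT replicate 12 and 314 without WT replicate 11. Without a minimum abundance 22 transcripts passed, 20 of them with no more than 1 read in any culture. No member and no gene of the partner lists passed under any of these alternatives, also with 0.1 RPKM added, median-of-ratios scaling and summed rows. Of 99 recomputed log2 differences of the members, 93 kept their direction, and all 6 that changed it came from leaving out a culture. Among the 93, those of Nrg4 with a culture left out could not change direction, because its genotypes did not overlap. With 1 culture left out, the log2 difference ranged from -0.19 to 0.28 for Retn, from -0.25 to 0.30 for Vegfa and from -0.28 to 0.14 for Metrnl, and the cause was not tested. Retn changed sign without WT replicate 12 or Ucp1-KO replicate 13, Vegfa without WT replicate 10 or Ucp1-KO replicate 15, and Metrnl without WT replicate 11 or Ucp1-KO replicate 15. Members at a limma unadjusted p under 0.05 were 1 (Nrg4) with all cultures, 3 without WT replicate 10 (also Apln and Angptl4) and 2 without Ucp1-KO replicate 13 (also Nampt). No paired analysis was possible because the genotypes share no replicate number. With 3 cultures a genotype, the 95% intervals rest on the spread between cultures, which limma moderates towards that of transcripts of like abundance.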

Other observations

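Secreted factors that are not among the 10 genes, named here after their values were seen, also varied between cultures of the same genotype. Ccl2, the gene of a monocyte-attracting chemokine, had 11.8, 12.3 and 6.16 RPKM in WT and 29.5, 23.4 and 5.30 RPKM in Ucp1-KO cultures. Lcn2, the lipocalin 2 gene, had 6.18, 22.0 and 11.4 RPKM in WT and 6.68, 7.35 and 1.72 RPKM in Ucp1-KO cultures. Neither passed the limma test (adjusted p = 0.893 for Ccl2 and 0.868 for Lcn2). Fgf21, the gene of a hormone that raises energy expenditure, and Gdf15, the gene of a stress hormone, were both detected, with 20.4 ± 4.30 and 18.6 ± 5.88 RPKM in WT and 16.7 ± 5.98 and 19.2 ± 5.33 RPKM in Ucp1-KO cells (SD over n = 3 cultures each).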
